A study of Mus musculus with 8 samples.

Results

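The Serpinb9 family comprises 7 mouse genes, Serpinb9, Serpinb9b, Serpinb9c, Serpinb9d, Serpinb9e, Serpinb9f and Serpinb9g, found here by matching the RefSeq accession carried by each array probe to these symbols. They are represented by 9 of the 55681 probes, and 6 of the 7 genes were among the 24637 genes tested. RNA was measured on 1-colour Agilent mouse arrays in cultures of motor neurons grown from male mouse embryonic stem cells of an Hb9GFP line, in which green fluorescent protein reports motor neuron identity. Retinoic acid and Sonic hedgehog were given between day 2 and day 5 of differentiation, the cells were dissociated on day 5, and the neurotrophic factor GDNF was present from then on. There were 4 groups of 2 arrays: Litchi knockout and control cells sampled on day 7, and Litchi knockout and control cells sampled on day 9. How the knockout was made and how many clones it came from are not given in the sources used here, and Litchi matched 0 names in the gene table, so its level could not be checked against the labels. The labels do not say that replicates were separate cultures, so a p-value here reflects how much these arrays scatter, in part perhaps for technical reasons.

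Serpins of clade B are protease inhibitors that lack a secretion signal and act mainly inside the cell that makes them. Each presents an exposed loop as bait; a protease that cleaves it is trapped in a covalent complex. Serpinb9 inhibits granzyme B, the serine protease that cytotoxic lymphocytes deliver into their targets through perforin pores, and is best known for protecting lymphocytes and other exposed cells from that enzyme. Humans carry a single SERPINB9, whereas the mouse has a cluster of copies on chromosome 13. Mouse Serpinb9b is known to inhibit granzyme M, and transcripts of several other copies have been described in the placenta, where their protease targets are less well established.

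Close copies can share probe targets, so a result for one may carry signal from another. Probe sequences were not available and transcripts were not compared, so this was not checked. Only the promoters were compared. The RefSeq promoters of the GRCm38.p6 assembly cover 250 bases before and 50 bases after each start, 300 bases in all, and hold 8 entries for the 7 genes because Serpinb9c has 2 starts. Serpinb9e and Serpinb9f had the same base at 94.3% of the 300 positions, Serpinb9e and Serpinb9g at 94.7%, and Serpinb9f and Serpinb9g at 92.3%. Serpinb9d shared between 87.0% and 91.0% of positions with these 3 promoters, and the first start of Serpinb9c between 62.3% and 66.3% with the other 4. Serpinb9 aligned with Serpinb9b over 275 bases, with 62.3% of the 300 positions and 68.0% of the aligned ones identical. With Serpinb9d to Serpinb9g and the first start of Serpinb9c it aligned over only 146 to 164 bases. Within those shorter alignments 66.9% to 73.2% of bases were identical, and over the 300 positions 34.3% to 40.0%. The values over 300 positions thus reflect the aligned length as well as the match. As a background, promoters of other clade B serpins, Serpinb9h left out, shared 45.0% to 56.0% of the 300 positions with Serpinb9g (median 51.0%). The 62.3% to 66.3% of Serpinb9c and the 62.3% of Serpinb9 with Serpinb9b are modest against that range.

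**Figure D1:**
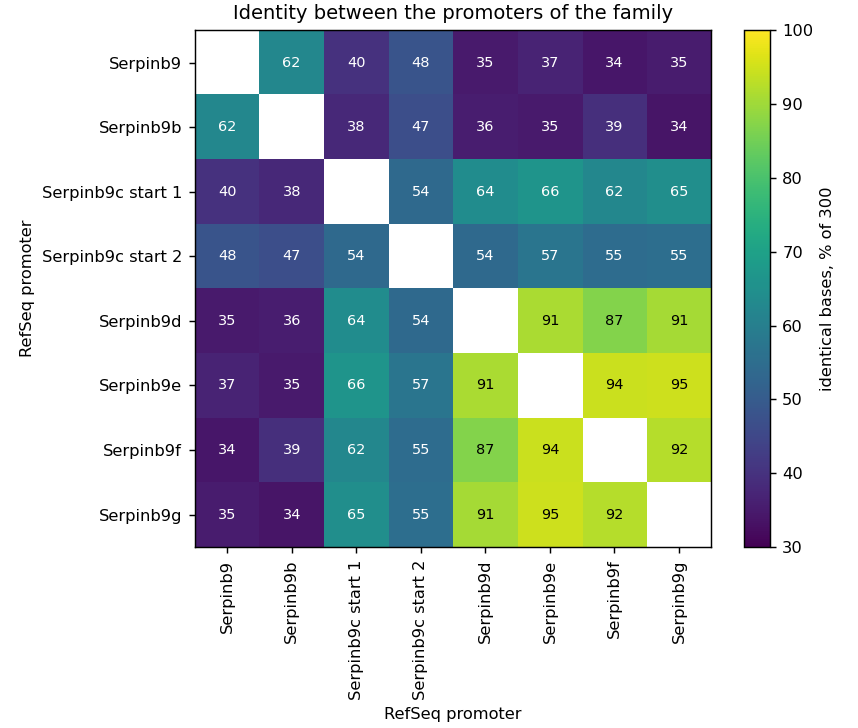
Share of identical bases, in percent of 300, between each pair of RefSeq promoters of the family; rows and columns are promoters and the colour scale runs from dark (low) to light (high). Serpinb9d, Serpinb9e, Serpinb9f and Serpinb9g form a block of 87.0% to 94.7%, and the values of Serpinb9 and Serpinb9b with it are lower, over shorter alignments.

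The stretch that the promoters of the Serpinb9c to Serpinb9g set share most visibly holds the letters TGACGT, the core of the cAMP response element. It is shown for these 5 promoters, 36 bases each, read 5′ to 3′ on the gene's strand with the 6 letters in capitals.
Serpinb9c, first start (chr13:33159776-33159811, minus strand): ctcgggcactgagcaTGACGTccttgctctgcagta
Serpinb9d (chr13:33192889-33192924, plus strand): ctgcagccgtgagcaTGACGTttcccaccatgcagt
Serpinb9e (chr13:33249543-33249578, plus strand): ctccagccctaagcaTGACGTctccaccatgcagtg
Serpinb9f (chr13:33323997-33324032, plus strand): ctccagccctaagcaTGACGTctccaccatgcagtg
Serpinb9g (chr13:33484721-33484756, plus strand): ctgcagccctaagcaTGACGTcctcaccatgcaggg
The first letter of the match lay 42, 51, 50, 65 and 54 bases before the start in Serpinb9c, Serpinb9d, Serpinb9e, Serpinb9f and Serpinb9g. The Serpinb9e and Serpinb9f stretches were identical. TGACGT, searched on both strands, occurred in 5 of the 8 family promoters, in 0 of 23 promoters of 18 other clade B serpin genes and in 7.5% of 32851 mouse promoters. It was also absent from the promoter of Serpinb9h, a further copy in the cluster that is no member here. That promoter shared 50.3% of the 300 positions with Serpinb9g, against a median of 51.0% for other clade B serpins. The absence thus concerns a window no closer to Serpinb9g than theirs. The 5 promoters are close copies, so they do not count as 5 independent occurrences.

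The promoter of Serpinb9, which holds no TGACGT, is shown whole because its RNA followed a different course on the arrays. Capitals mark a match, on the opposite strand, to the core of the interferon-stimulated response element, searched on both strands as GAAA, any 2 bases and GAAA.
Serpinb9 (chr13:33004291-33004590, plus strand): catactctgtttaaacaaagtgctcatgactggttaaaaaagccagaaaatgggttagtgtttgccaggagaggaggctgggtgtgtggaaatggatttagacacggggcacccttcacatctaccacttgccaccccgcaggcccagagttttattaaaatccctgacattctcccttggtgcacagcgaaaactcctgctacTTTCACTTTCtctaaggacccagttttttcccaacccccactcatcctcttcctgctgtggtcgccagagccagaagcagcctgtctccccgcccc
The match began 46 bases before the start. This element occurred in 1 of the 8 family promoters, 1 of the 23 promoters of other clade B serpins (Serpinb6a), 0 of 1 for Serpinb9h and 3.4% of all promoters. Of the other motifs searched, TTCNNNGAA, the gamma-activated site, occurred in 1 of the 8 (the first start of Serpinb9c) and in 8.3% of all promoters, and TATAAA in 0 of the 8 and 13.6% of all. No motif overlapped another in these promoters. A match describes letters in a window and not a bound site.

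Array signals are given as a percent of the 75th percentile of the same array, the value by which arrays were put on one scale, and each probe is compared with itself between arrays and not with other probes. Its value lay between 649.3 and 1691 units of intensity, and the 4 arrays of replicate 1 were brighter than the 4 of replicate 2. Signals well above background reached down to between 0.727% and 3.66% of it, depending on the array. Where a family probe was not well above background, this is said beside its values. A gene entered the test when some group had it well above background on each of its 2 arrays, and it was called if limma gave an adjusted p under 0.05 over all 24637 genes.

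The family was chosen by its measured log2 differences between knockout and control cells, so those differences are described here and not tested. Serpinb9c, Serpinb9d, Serpinb9e, Serpinb9f and Serpinb9g were all lower in knockout cells on both days, by roughly the same factor. Serpinb9 did not share this pattern, and Serpinb9b was not well above background on any of the 8 arrays.

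Serpinb9f, a copy whose protease target is not settled, had a signal of 15.2% and 20.2% in knockout cells on day 7, against 179% and 164% in control cells. On day 9 it had 15.5% and 14.5% in knockout cells, against 180% and 129% in control cells. The groups did not overlap on either day, and the knockout arrays lay close together. The log2 difference, knockout minus control, was -3.29 ± 0.21 on day 7 and -3.35 ± 0.21 on day 9 (SE from the fit, n = 2 arrays a group), or 9.79-fold and 10.2-fold lower.

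Serpinb9e, the nearest copy of Serpinb9f by promoter, had 2 usable probes. Its brighter probe had 13.1% and 18.7% in knockout cells on day 7, against 164% and 144% in control cells. On day 9 the same probe had 12.5% and 12.3% in knockout cells, against 158% and 113% in control cells. Its log2 difference was -3.30 ± 0.23 on day 7 and -3.43 ± 0.23 on day 9. The second probe had 3.95% and 5.44% in knockout cells on day 7, against 24.3% and 32.6% in control cells. On day 9 that probe gave 3.43% and 3.76% in knockout cells, against 28.7% and 20.5% in control cells. Both probes thus placed every knockout array below every control array, with a smaller difference on the second, -2.60 ± 0.25 and -2.75 ± 0.25.

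Serpinb9g had 8.15% and 11.5% in knockout cells on day 7, against 114% and 90.9% in control cells. On day 9 its signal was 8.03% and 6.72% in knockout cells, against 99.2% and 78.4% in control cells. The groups were again separate, with log2 differences of -3.40 ± 0.23 and -3.59 ± 0.23, or 10.5-fold and 12-fold lower.

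Serpinb9c and Serpinb9d were dimmer. Serpinb9c had 2.68% and 2.94% in knockout cells on day 7, against 30% and 20.5% in control cells. Its day 9 signal was 3.71% and 2.03% in knockout cells, against 25.4% and 15.9% in control cells, and the 2.03% was not well above background. Its log2 differences were -3.14 ± 0.36 and -2.87 ± 0.36. A second Serpinb9c probe, at 0.512% to 0.903% over the 8 arrays, was not well above background on any and was not used. Serpinb9d had 2.10% and 1.72% in knockout cells on day 7, against 19.4% and 11.8% in control cells. By day 9 the values were 1.70% and 1.00% in knockout cells, against 24.8% and 13.1% in control cells. Only 1 of the 2 knockout arrays on each day was well above background for Serpinb9d, which entered the test through the control groups alone, so that it had to be higher in control cells. The log2 differences were -3.0 ± 0.41 and -3.78 ± 0.41. With normexp background correction in place of the scanner's, the differences shrank to -1.83 and -1.67 for Serpinb9c and to -1.33 and -1.77 for Serpinb9d, while Serpinb9e, Serpinb9f and Serpinb9g stayed between -2.74 and -2.90.

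Serpinb9, the granzyme B inhibitor that the family is named for, ran the other way on day 7. It had 10.5% and 7.61% in knockout cells on that day, against 4.22% and 2.41% in control cells, of which the 2.41% was not well above background. Its signal on day 9 was 9.75% and 10.2% in knockout cells, against 5.83% and 13.5% in control cells. The groups were separate on day 7 and overlapped on day 9, where the control arrays lay on either side of the knockout arrays. The log2 difference was 1.49 ± 0.44 on day 7 and 0.17 ± 0.44 on day 9. The day 7 value was 0.62 with normexp background correction, and the day 9 value was -0.43 without replicate 1 of control day 9.

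Serpinb9b, the granzyme M inhibitor, had between 0.255% and 0.555% in knockout cells on day 7, against 0.245% and 1.22% in control cells. For day 9 the values were 0.261% and 0.484% in knockout cells, against 0.411% and 0.586% in control cells. None of these 8 values was well above background, so no difference is given.

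**Figure D2:**
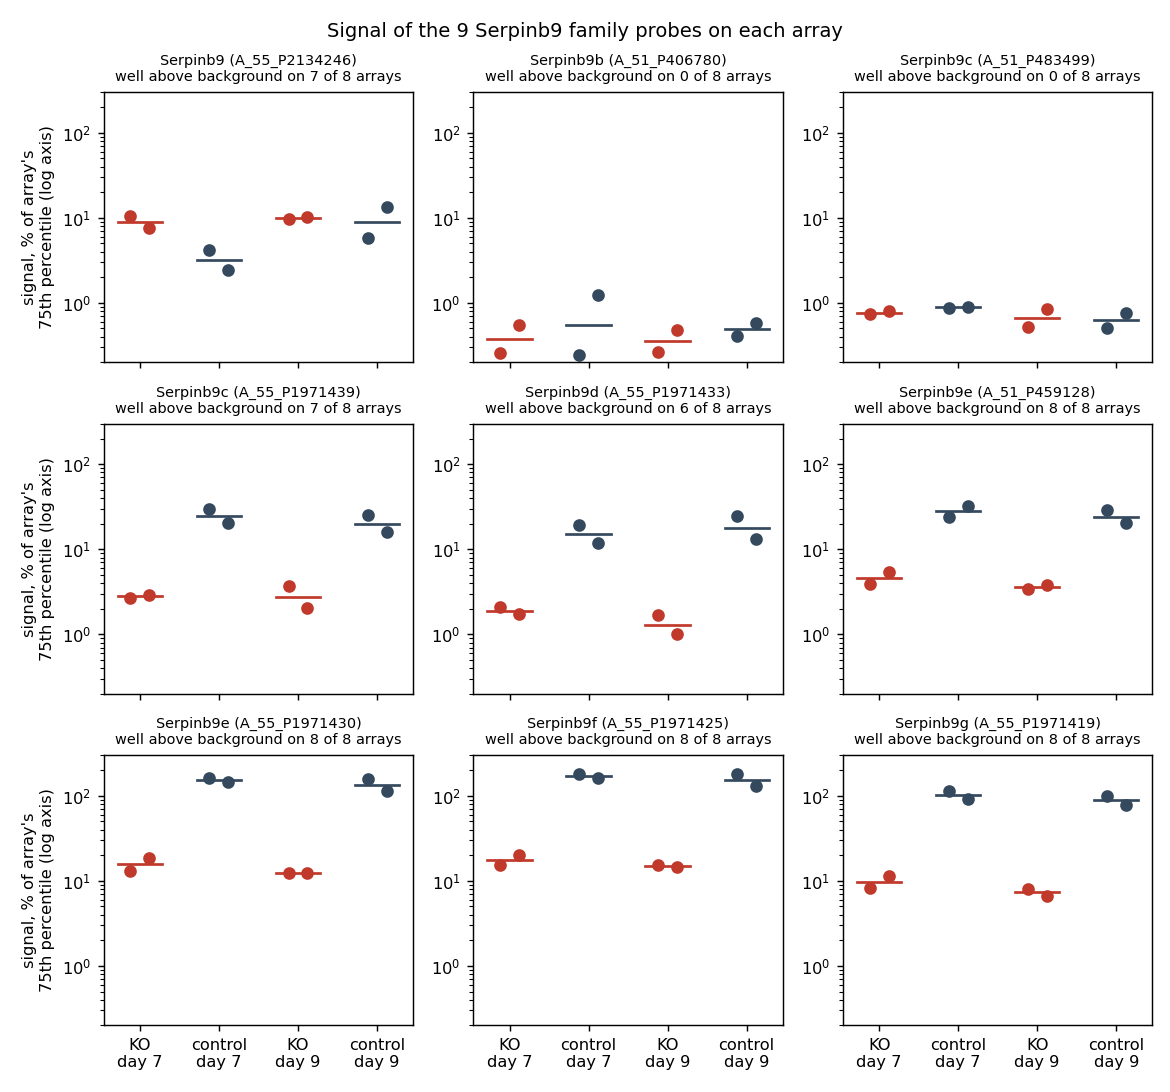
Signal of each of the 9 family probes on each of the 8 arrays, in percent of the array's 75th percentile on a log axis, with knockout groups (red) left of control groups (grey) within each day; points are replicates 1 and 2 and bars are geometric means. Knockout arrays lie below control arrays on both days for the 6 probes of Serpinb9c to Serpinb9g that rise above background, while Serpinb9 is separate on day 7 only.

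Counted over the family, 4 of the 6 tested members (Serpinb9c, Serpinb9e, Serpinb9f and Serpinb9g) passed the threshold as lower on day 7, where 0.11% of all genes did, and 0 as higher, where 0.0934% did (0.203% in either direction). On day 9, 5 of 6 passed as lower (Serpinb9c to Serpinb9g), where 3.93% of all genes did, and 0 as higher, where 1.52% did (5.45% in either direction). The median log2 difference of the 6 was -3.22 on day 7 and -3.39 on day 9, against -0.05 and -0.02 over all genes tested. Every knockout array lay below every control array on both days in 5 of 6, where 8.59% of genes did so, and above in 0, where 5.43% did. Taken day by day, 27.8% of genes lay lower and 20.6% higher without overlap on day 7, Serpinb9 being one of those higher, and 32.5% lower and 27.2% higher on day 9. Ranked from the most negative difference among 24637 genes, the 5 stood between rank 6 (Serpinb9g) and rank 14 (Serpinb9d) on day 7, and between rank 12 (Serpinb9d) and rank 77 (Serpinb9c) on day 9. Serpinb9d is counted in these although only the control groups brought it into the test. Since this contrast chose the members, nothing is read from these shares. The count of members past the threshold moved when 1 array was left out: on day 7 it was 0 without control day 7 replicate 2, knockout day 7 replicate 1 or either knockout day 9 array, and 2 without control day 7 replicate 1. The day 9 count was 0 when replicate 2 of the knockout group was left out, and 3 when replicate 1 of the knockout or control group was. The differences themselves moved less, and those of Serpinb9g stayed between -3.64 and -3.15 on day 7 and between -3.76 and -3.42 on day 9 whichever array was left out.

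The days were compared next, a contrast that the choice of members did not use. None of Serpinb9c to Serpinb9g changed between day 9 and day 7 in either genotype by limma. In knockout cells their log2 differences, day 9 minus day 7, ran from -0.54 (Serpinb9d) to -0.03 (Serpinb9c), with adjusted p between 0.333 and 0.963. In control cells they ran from -0.31 (Serpinb9c) to 0.25 (Serpinb9d), with adjusted p between 0.622 and 0.748. The 95% intervals leave room for changes: for Serpinb9f it ran from -0.74 to 0.29 in knockout cells and from -0.68 to 0.35 in control cells, and for Serpinb9d from -1.53 to 0.45 and from -0.74 to 1.23.

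Serpinb9 had a signal in control cells of 5.83% and 13.5% on day 9, against 4.22% and 2.41% on day 7. The arrays of the days did not overlap, but replicate 1 differed by 0.47 log2 units and replicate 2 by 2.49. The difference of 1.48 ± 0.44 did not pass the threshold (limma adjusted p = 0.0954), with a 95% interval from 0.42 to 2.53. It was past the threshold only when control day 9 replicate 1 was left out, at 2.08, and ran from 0.87 to 2.08 over the 8 fits that each leave out 1 array. In knockout cells Serpinb9 differed by 0.16 ± 0.44 between the days (limma adjusted p = 0.84).

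None of the 6 members passed between the days. In knockout cells 8.35% of all genes did, 4.14% higher and 4.21% lower on day 9, against 7.37% in control cells, 4.1% higher and 3.27% lower. At an unadjusted p under 0.05, where 26.1% of all genes were in either genotype, 0 members passed in knockout cells, against 1 (Serpinb9) in control cells. The change of the knockout effect with time, tested as an interaction term, was called for 0 members and for 0.00406% of genes, which is 1 gene. For Serpinb9 the term was -1.31 ± 0.62, with an interval from -2.81 to 0.18 (limma adjusted p = 0.848). For the other 5 it ran from -0.79 (Serpinb9d) to 0.27 (Serpinb9c), with adjusted p between 0.891 and 0.991. The interval was -0.98 to 0.60 for Serpinb9g and -0.78 to 0.67 for Serpinb9f, so differences between the days within these bounds are not excluded. These bounds are not limits of detection, since the larger term of Serpinb9 also missed the threshold with 2 arrays a group.

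Along chromosome 13, the differences of -2.87 to -3.78 belonged to the run of Serpinb9c to Serpinb9g, and no tested gene around it passed the threshold between genotypes. In the order of the gene table, Serpinb9 and Serpinb9b lie on one side, then Serpinb1b, then Serpinb9c to Serpinb9g, then Serpinb6d. Of 10 other genes that the table lists between the first and last member, 1 had a probe, Serpinb1b, and it was not well above background on any array. Another copy, Serpinb9h, lies between Serpinb9f and Serpinb9g and had no probe here. Of the nearest 10 genes with a probe on each side, 17 of 20 were tested, and 0 passed the threshold between genotypes on either day by limma. At an unadjusted p under 0.05 there were 2 of 17 on day 7 and 8 of 17 on day 9, where 18.9% and 25.7% of all genes were. Their median log2 difference was 0.17 on day 7 and 0.14 on day 9. Serpinb6b, the nearest tested neighbour on the Serpinb9 side, had 13.4% and 12.5% in knockout cells on day 7, against 24.7% and 22.4% in control cells. Its day 9 signal was 26.3% and 17.1% in knockout cells, against 35.1% and 47.6% in control cells. The groups did not overlap on either day, with differences of -0.86 ± 0.25 and -0.95 ± 0.25 (limma adjusted p = 0.153 and 0.0772). Serpinb6d, the nearest on the Serpinb9g side, stood at 0.17 ± 0.50 and 0.21 ± 0.50 (adjusted p = 0.895 and 0.826). Ripk1, a kinase of cell death and inflammatory signalling, stood at 0.80 ± 0.17 on day 7 (adjusted p = 0.102), and Foxc1, a forkhead transcription factor, at 0.97 ± 0.35 on day 9 (adjusted p = 0.146).

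**Figure D3:**
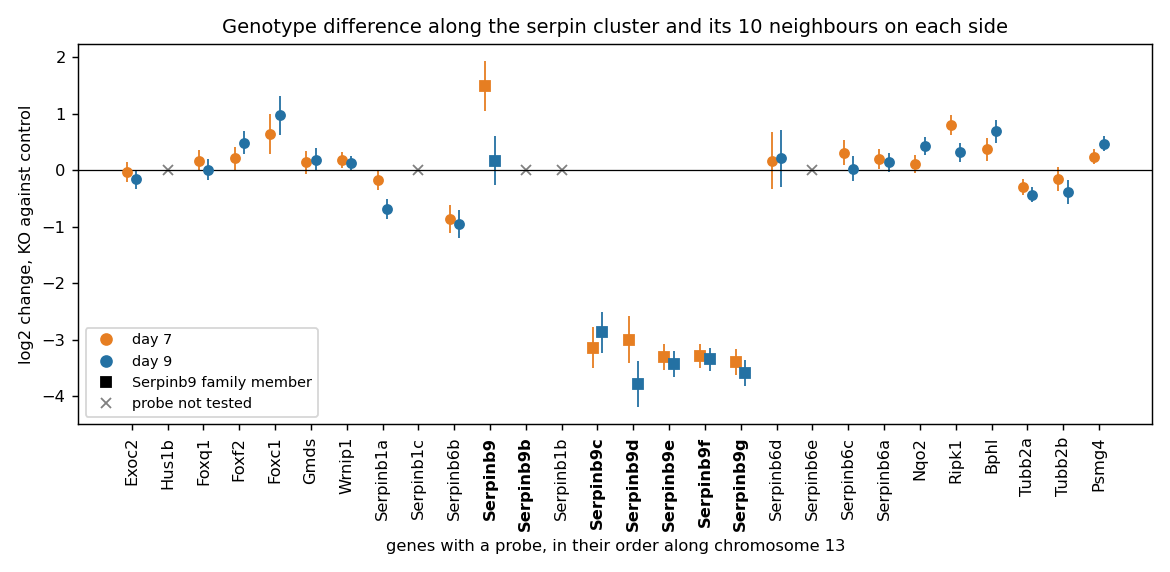
Log2 difference, knockout minus control, on day 7 and day 9 for genes with a probe in their order along chromosome 13, covering the family (squares) and the 10 neighbours on each side (circles); bars are standard errors and crosses mark probes that were not tested. Serpinb9c to Serpinb9g lie between -2.87 and -3.78, whereas no tested neighbour lies below -0.95.

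Other clade B serpins gave a comparison within the protein family. On chromosome 13, where the list includes Serpinb9h and a pseudogene, neither with a probe, 5 of 10 were tested (Serpinb1a, Serpinb6a, Serpinb6b, Serpinb6c and Serpinb6d). Of these, 0 passed between genotypes on either day by limma. Those at an unadjusted p under 0.05 were 1 on day 7 and 2 on day 9, against 18.9% and 25.7% of all genes. Serpinb1a, an inhibitor of neutrophil proteases, had 7.72% and 6.54% in knockout cells on day 9, against 10.8% and 12.2% in control cells, a log2 difference of -0.69 ± 0.18 (adjusted p = 0.0789). It was the member of that list that changed with time, and fell by 1.06 ± 0.18 from day 7 to day 9 in knockout cells (adjusted p = 0.0211). That call was lost with normexp background correction, with no filter on dim probes and when knockout day 7 replicate 2 or either array of knockout day 9 was left out. On other chromosomes 2 of 12 were tested, Serpinb3c and Serpinb8, and 0 passed in any comparison. Serpinb8, an inhibitor of furin-type proteases, stood at -0.75 ± 0.16 on day 7 (adjusted p = 0.103).

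Genes of the granzyme pathway, granzymes and their partners, were in part too dim to test. Of 13 genes of the granzyme pathway, 7 were tested: Gzma, Gzme, Gzmk, Gzmm, Prf1, Srgn and Ctsc. None of them was called between genotypes on either day by limma. At an unadjusted p under 0.05 there were 1 on day 7 and 2 on day 9, where 18.9% and 25.7% of all genes were. Gzmb, the main target of Serpinb9, was well above background on 2 of 8 arrays and was not tested. Prf1, the pore-forming perforin, had 14.2% and 20.2% in knockout cells on day 7, against 14.9% and 18.4% in control cells, which overlap. Ctsc, the protease that activates granzymes, stood at 1.10 ± 0.32 on day 7 and 0.86 ± 0.32 on day 9 (adjusted p = 0.155 and 0.158). It had 47.3% and 45.5% in knockout cells on day 7, against 19.5% and 24.1% in control cells. On day 9 it had 72.8% and 43% in knockout cells, against 24.4% and 39.2%. Every knockout array thus lay above every control array for Ctsc, where 5.43% of genes did so. Gzme, a granzyme of the mouse-specific expansion, stood at -1.45 ± 1.03 on day 7 (adjusted p = 0.497), with control day 7 replicate 2 at 22.1% and the 7 other arrays at or below 2.39%. It was well above background on 4 arrays: 1 of knockout day 7, both of control day 7 and 1 of control day 9. It was called as different without control day 7 replicate 1 on day 7, and without either control day 7 array on day 9, when no knockout array had it well above background.

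With time, Gzmm was the single granzyme pathway gene called. This granzyme, the target of Serpinb9b, had 82.1% and 54.2% in control cells on day 9, against 198% and 165% on day 7. It fell by 1.44 ± 0.25 on the log2 scale (limma adjusted p = 0.0261), a call lost when either control day 7 array or control day 9 replicate 2 was left out, and with no filter on dim probes. In knockout cells the difference was -1.03 ± 0.25 (adjusted p = 0.0542), past the threshold when either control day 9 array was left out. The intracellular substrates of granzyme B, 9 genes from Bid to Lmnb1, were all tested, and 0 were called in any of the 5 comparisons. Casp8, the initiator caspase, had the largest genotype difference of the list, 1.16 ± 0.60 on day 7 and 1.35 ± 0.60 on day 9 (adjusted p = 0.356 and 0.217).

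**Figure D4:**
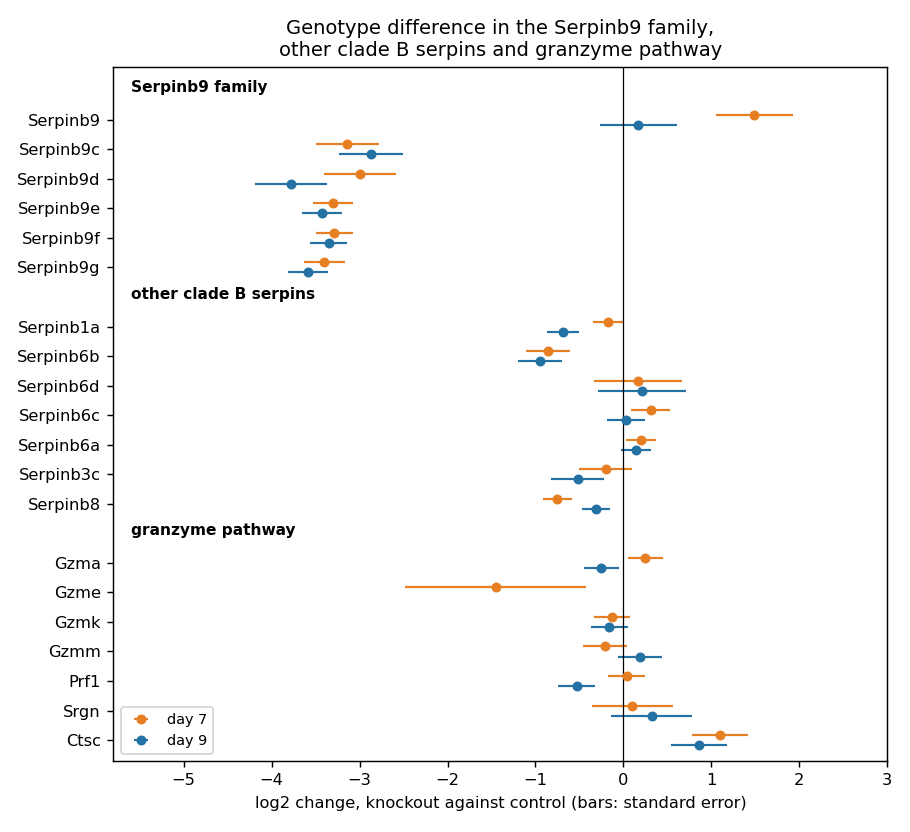
Log2 difference, knockout minus control, on day 7 and day 9 for the 6 tested family members, 7 other clade B serpins and 7 granzyme pathway genes; points are estimates from the fit and bars are standard errors. Serpinb9c to Serpinb9g lie between -2.87 and -3.78, apart from the other 2 groups, of which Gzme at -1.45 ± 1.03 on day 7 lies lowest; Gzme on day 9, below background on both knockout arrays, is not drawn.

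Markers of cytotoxic lymphocytes, the cells best known for Serpinb9, were in part measured and in part not. Of 10 markers, Cd3e, Nkg7 and Prf1 were well above background on all 8 arrays and Gzma on 5; these 4 were tested and 0 were called in any comparison. Ptprc and Gzmb were well above background on 2 arrays each, and Cd8a, Klrb1c, Ncr1 and Ifng on none. Of the myeloid and microglial list, 3 of 7 were tested, and Csf1r, a growth factor receptor, was lower in knockout cells on day 9 at -1.19 ± 0.14 (limma adjusted p = 0.0182; the call was lost when any 1 of the 4 day 9 arrays was left out), while C1qa and Tyrobp were not well above background on any array. The 8 motor neuron markers, Isl1, Isl2, Lhx3, Lhx4, Chat, Slc18a3, Slc5a7 and Prph, were well above background on all 8 arrays.

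Trophoblast and placenta genes moved in the same direction between genotypes as Serpinb9c to Serpinb9g. Of 21 listed, 20 had a probe and 15 were tested. Of these, 3 were called lower in knockout cells on day 7 (Prl2a1, Ctsr and Rhox12) and 9 on day 9, and 0 were higher on either day. Over all genes 0.11% were called lower on day 7 and 3.93% on day 9, and 0.0934% and 1.52% higher. All 15 had negative differences on both days, with medians of -1.47 and -2.68. Tpbpb, Prl8a9, Ctsq and Ctsr entered the test through the control groups alone and were not well above background on any knockout array, so their direction was fixed. Of the other 11, 2 were called on day 7 and 6 on day 9, with medians of -1.43 and -2.04. Leaving out 1 array gave 0 to 4 calls on day 7 and 0 to 8 on day 9, with 0 on day 7 without control day 7 replicate 2 or any 1 of the knockout arrays, and 0 on day 9 without knockout day 9 replicate 2. Prl2a1, a prolactin family hormone of the placenta, had 4.70% and 5.73% in knockout cells on day 7, against 33.3% and 44.3% in control cells, and -2.89 ± 0.24 was its log2 difference (limma adjusted p = 0.0174). Rhox12, a reproductive homeobox gene, differed by -2.83 ± 0.30 on day 7 and -2.77 ± 0.30 on day 9 (adjusted p = 0.0385 and 0.0159). The defining markers Tpbpa, Cdx2, Eomes, Elf5 and Ctsm were not tested, being well above background on at most 2 arrays each.

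Averaged over the 15 genes, each centred on its own mean, the list stood at -1.05 and -0.67 on the knockout day 7 arrays, against 1.05 and 1.01 on the control day 7 arrays. On day 9 it stood at -1.48 and -1.36 in knockout cells, against 0.97 and 1.53 in control cells. Serpinb9c to Serpinb9g, averaged likewise, stood at -1.63 and -1.38 in knockout cells on day 7, against 1.91 and 1.53 in control cells, and at -1.61 and -2.01 on day 9, against 1.88 and 1.30. Both averages hold genes that entered the test through the control groups alone. These were Tpbpb, Prl8a9, Ctsq and Ctsr in the list and Serpinb9d among the serpins. Part of the separation by genotype, and of the likeness, was thus fixed in advance. The list was not averaged without those genes. Whether the trophoblast genes and the serpins were read from the same cells was not tested, and in such bulk RNA fewer cells of a type and less RNA per cell cannot be told apart.

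For Serpinb9 the interferon response list is set beside the values, since its groups were likewise separate on day 7 and not on day 9. Of 16 listed genes 14 were tested, and all 14 had a positive difference between knockout and control cells on day 7, with a median of 2.69; 0 were called by limma, and 14 had an unadjusted p under 0.05. On day 9, 13 of 14 were positive, 0 were called, 1 had an unadjusted p under 0.05, and the median was 0.76. Between day 9 and day 7 in knockout cells all 14 were positive, with a median of 1.58; 9 had an unadjusted p under 0.05 and 1 (Bst2) was called. Over all genes the medians were -0.05 on day 7, -0.02 on day 9 and -0.12 between the days in either genotype. The shares of all genes at an unadjusted p under 0.05 were 18.9%, 25.7% and 26.1%. Between the days 4.14% of all genes were called higher in knockout cells and 4.1% in control cells. For the list, the day difference in control cells was positive in all 14, with a median of 3.60, and 13 were called. The 13 became 8 without control day 7 replicate 1 or control day 9 replicate 2, and 0 without control day 7 replicate 2; between genotypes on day 7, 11 were called without either control day 9 array. The averaged list stood at 0.22 and -0.01 on the knockout day 7 arrays, against -2.20 and -2.73 on the control day 7 arrays. On day 9 it stood at 1.72 and 1.32 in knockout cells, against 0.07 and 1.62 in control cells. Serpinb9 stood at 0.57 and 0.10 in knockout cells on day 7, against -0.75 and -1.56 in control cells, and at 0.46 and 0.53 on day 9, against -0.28 and 0.93. In both, replicate 1 of control day 9 lay below replicate 2. In knockout cells the profiles parted, since the list was higher on day 9 than on day 7 while Serpinb9 differed by 0.16 ± 0.44. The part of interferon signalling in the level of Serpinb9 was not tested.

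**Figure D5:**
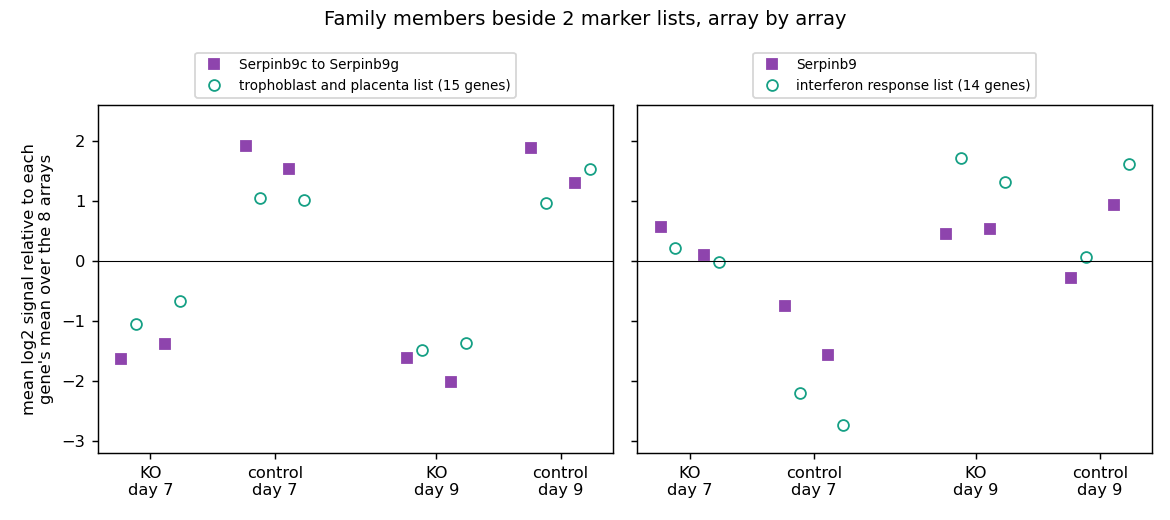
Mean log2 signal of Serpinb9c to Serpinb9g (left, squares) and of Serpinb9 (right, squares) beside the trophoblast and placenta list and the interferon response list (open circles), each gene centred on its mean over the 8 arrays, with replicates 1 and 2 side by side in each group. On the left the knockout arrays lie between -2.01 and -0.67 and the control arrays between 0.97 and 1.91. The left averages include Serpinb9d, Tpbpb, Prl8a9, Ctsq and Ctsr, whose direction was fixed because only the control groups brought them into the test. On the right the control day 7 arrays lie lowest, between -2.73 and -0.75.

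The 5 lower members resembled each other closely across the 8 arrays. Pearson r between any pair of Serpinb9c to Serpinb9g was 0.978 to 0.999, and r of Serpinb9 with each of them was -0.519 to -0.600. These values describe arrays that fall into 2 genotypes, in probes whose targets are close copies, and carry no p. Likeness was ranked only for genes with a symbol, which 15039 of the 24637 tested had. Of these, the gene outside the family most like the mean of the 5 was Sct (r = 0.993), which encodes the hormone secretin. Sct had 573% and 495% in knockout cells on day 7, against 3110% and 2540% in control cells, and 419% and 413% on day 9, against 2670% and 2220%. It was lower in knockout cells, with log2 differences of -2.40 ± 0.17 and -2.55 ± 0.17. Since the mean of the 5 itself steps with genotype, a gene picked for likeness to it shares that direction by choice. Such differences are described here and not tested. The next were Skor1, a transcriptional corepressor (r = 0.992), and Mcf2l, Rab6b, Tspan17 and Pparg (r = 0.991 each). Pparg, a nuclear receptor of fat and placenta, differed by -1.33 ± 0.14 on day 7 and -1.21 ± 0.14 on day 9. Outside the family, 24617 genes, with and without a symbol, had values on all arrays. Of these, 23 had an r of 0.983 or more with the mean of the 5. The least like member had that r with the mean of the others.

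Most like Serpinb9 among genes with a symbol were Cstdc5 (r = 0.988) and Csta2 (r = 0.980), which are cystatin family genes. Then came Gbp2 (r = 0.965), an interferon-inducible GTPase, Map3k8 (r = 0.963), Socs1 (r = 0.960), a cytokine signalling inhibitor, and Trim21 (r = 0.960). Map3k8, at 0.847% to 3.55%, was well above background only on replicate 1 of knockout day 7 and both knockout arrays of day 9. Its r thus rests in part on values near background. Cstdc5 was not well above background on replicate 2 of control day 7. Gbp2 had 320% and 246% in knockout cells on day 7, against 49.7% and 29.8% in control cells, and 441% and 330% on day 9, against 129% and 357%. Its groups were separate on day 7 and overlapped on day 9, with log2 differences of 2.87 ± 0.50 and 0.83 ± 0.50. Since Gbp2 was picked for likeness to Serpinb9, this shared pattern is described and not tested.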

How the data were processed

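RNA was extracted with Trizol, treated with DNase and labelled with Cy3 (0.5 ug, RNA integrity number above 9), per the labels' protocols. Agilent Feature Extraction, version 10.5.1 in the submitters' processing notes, turned the scans into signals. The processed signal is a background-subtracted spot intensity with no scaling between arrays, per the file headers. The authors also deposited a log2 table of the same arrays, used as an alternative; the offset of its scale is unknown. All 8 arrays were on 1 slide. Of 62976 spots an array, 3671 controls and 104 to 166 outlier spots were left out, and 0 were saturated. The share of spots well above background was 55.9% to 67.9% an array, and the number of arrays limits the precision.

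Each value is log2 of the processed signal minus log2 of the array's 75th percentile. Spots of a probe were averaged, and the kept probe with the highest mean stood for a gene. The files carry no gene name column, so names came from RefSeq accessions and a table on GRCm38.p6, which named 26300 probes; the array's own positions are on another build and none is printed. One fit of 4 group means over 8 arrays was made with limma 3.58.1 in R 4.3.3 (4 residual and 2.53 prior degrees of freedom, two-sided, Benjamini-Hochberg adjustment over 24637 genes) and was tested on simulated data. Promoters were aligned with Biopython 1.88.

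The members, gene lists, tests and the rule for named genes were chosen with earlier results of these data known. Named are all members, the called genes of the serpin, neighbour and granzyme lists with up to 3 others of the largest change, and the 6 genes with a symbol most like each profile. Called genes of the cell marker and interferon lists are named only in part, so a gene not named there may have been called. Genes that illustrate a list beyond that rule (Prf1, Serpinb6d and Gbp2 among them) were chosen after their values were seen. Alternatives were quantile or median scaling, normexp (offset 50, on median pixel signal because the mean is not in the files), the authors' values, no or a stricter filter, probe means, a replicate block and leaving out each array. Added after seeing the data were every probe as its own row and a crossed block. Mnx1 was not analysed here.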

Additional observations from a re-analysis of the deposited data

How the results depend on the processing

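Serpinb9c to Serpinb9g were lower in knockout cells on both days under all alternatives run. On day 7, 0 members were called with no filter on dim probes; on day 9, 0 were with no filter and 3 with normexp. Leaving out 1 array each gave 0 to 5 members on either day, and 0 to 1 for the days in control cells. Over all genes, day 7 gave 50 calls against 0 with no filter and 21 with normexp, and 0 to 125 leaving out 1 array; day 9 gave 1343 against 1 and 329, and 7 to 749. Between days, control cells gave 1815 against 74 and 683, and 8 to 1318; knockout cells gave 2057 against 477 and 865, and 439 to 1985. The interaction gave 1 call, and 0 with quantile or median scaling, normexp, the authors' values, no filter, the stricter filter or either block; leaving out 1 array gave 0 to 1. The cause of these shifts was not tested. Quantile scaling moved the share of calls that were higher on day 9 to 36.9%, median scaling to 38.9% and the authors' values to 37.1%, against 27.8%; on day 7 quantile scaling gave 56.5% against 46%.

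Replicate numbers paired the samples in part. Deviations of same-numbered arrays correlated at 0.46 between knockout and control cells on day 7. For control day 9 the values were 0.31 with knockout day 7 and 0.25 with control day 7. With knockout day 9 they lay between -0.25 and 0.04. With the replicate block, 102 genes were called on day 7 and 2012 on day 9, and 1 granzyme B substrate between days in knockout cells. A crossed block, chosen after seeing the data, gave 100, 2587, 3096 and 3295 calls on day 7, on day 9, and between days in control and knockout cells, and 0 for the interaction.

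Of the lists, leaving out 1 array gave 0 to 1 granzyme pathway genes between genotypes on either day and between days in either genotype, and no filter gave 0 between days in control cells. The neighbours gave 1 between days in control cells with quantile scaling or the authors' values; in knockout cells they gave 0 with no filter or normexp and 0 to 2 leaving out 1 array. Other clade B serpins of chromosome 13 gave 0 with no filter or normexp between days in knockout cells, and 0 to 1 leaving out 1 array.

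Small day and interaction values changed sign. Serpinb9c between days in knockout cells was 0.17 with quantile scaling and the authors' values, and the Serpinb9f interaction was 0.00, 0.05 and 0.01 with quantile scaling, normexp and the authors' values. Leaving out 1 array, Serpinb9 ran from -0.07 to 0.39 between days in knockout cells and from -0.43 to 0.78 between genotypes on day 9. Between days in control cells Serpinb9c ran from -0.64 to 0.03, Serpinb9d from -0.21 to 0.71, Serpinb9e from -0.44 to 0.04 and Serpinb9f from -0.41 to 0.07; in knockout cells Serpinb9c ran from -0.47 to 0.40. The interaction ran from -0.16 to 0.71 for Serpinb9c, -0.40 to 0.12 for Serpinb9e, -0.30 to 0.18 for Serpinb9f and -0.44 to 0.06 for Serpinb9g.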

Other observations

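Outside clade B, 14 of 40 other serpins were tested. Serpini1, which encodes neuroserpin, an inhibitor of tissue plasminogen activator in neurons, had 359% and 259% of the array's 75th percentile in knockout cells on day 9, against 1020% and 819% in control cells. It was the 1 gene of the list called between genotypes, with a log2 difference of -1.58 ± 0.22 (limma adjusted p = 0.022), with -1.29 ± 0.22 on day 7 (adjusted p = 0.0849); the day 9 call was lost without control day 9 replicate 1 or either knockout day 9 array. Serpinh1, a collagen chaperone, rose by 0.74 ± 0.15 from day 7 to day 9 in knockout cells (adjusted p = 0.0321).

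Among markers of other cells, Stmn2, a neuronal growth protein, was the 1 of 6 pan-neuronal genes called on day 9, lower in knockout cells with a log2 difference of -1.20 ± 0.14 (limma adjusted p = 0.0165). Of 8 motor neuron genes, 3 were lower on day 9 (Slc18a3, Slc5a7 and Prph) and 1 was higher, Lhx3 at 0.91 ± 0.16 (adjusted p = 0.0327). Over all genes 3.93% were called lower and 1.52% higher on day 9. Leaving out 1 array gave 0 to 4 calls in the motor neuron list and 0 to 1 in the pan-neuronal list, with 0 in both without control day 9 replicate 1 or either knockout day 9 array. Of the visceral and primitive endoderm list, 6 of 8 were tested and 0 were called between genotypes; Foxa2, which is also a floor plate gene, rose from day 7 to day 9 by 1.42 ± 0.13 in knockout cells (adjusted p = 0.00563) and by 0.90 ± 0.13 in control cells (adjusted p = 0.0191).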
